A study of Mus musculus with 2 samples.

Results

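Vascular smooth muscle nuclei made up 65 of the 29175 barcodes in 2 single-nucleus RNA libraries of mouse brown adipose tissue, with 15 in the library labelled KO and 50 in the library labelled Flox. The name comes from the rule that chose them, which set no limit on genes of pericytes, so they may include pericytes. The KO-labelled library came from Nfe2l1(f)-KO mice and the Flox-labelled one from Flox mice, both 4 weeks old. Nfe2l1 encodes NFE2L1 (NRF1), a factor that keeps up proteasome genes. The sources used here do not say which promoter or cell type drives the deletion, which part of the gene it removes, or the sex and number of the mice. KO and Flox below name the libraries by these labels. There was 1 library per genotype, so no difference between genotypes has a replicate check, no test was run, and values are set side by side. Nuclei of 1 library are not replicates.

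The nuclei were chosen from their own RNA. A barcode was a member when at most 10% of its UMIs (unique molecular identifiers, 1 per captured transcript) came from mitochondrial genes, when the adipocyte genes Ppara and Cidea together held less than 0.3% of its UMIs, when at least 2 of 6 smooth muscle genes were detected (Myh11, Myocd, Acta2, Tagln, Cnn1 and Lmod1, here called the detection genes), and when at most 1 of 9 genes of endothelium, fibroblasts, macrophages and skeletal muscle was detected (Flt1, Cyyr1, Col6a3, Dcn, F13a1, Mrc1, Trdn, Neb and Ryr1). The levels of those genes in the members therefore describe the choice and are no finding. Levels are in CPM (a gene's UMIs per 1000000 UMIs of the summed nuclei) with exact 95% Poisson intervals. Intervals cover counting error only, not the spread between nuclei or mice. The members held 30186 UMIs in the library labelled KO and 94238 in the library labelled Flox, so that 1 UMI was worth 33.1 CPM and 10.6 CPM, and a gene with 0 UMIs may lie as high as 99.4 CPM and 31.8 CPM (a limit of 3 counts, one-sided, used for every gene at 0). The median member had 1948 UMIs (899 to 4213) in KO and 1434 UMIs (527 to 6645) in Flox, against 2765 and 2378 UMIs over all barcodes kept in each library.

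Vascular smooth muscle cells wrap arteries, arterioles and veins and set vessel width by contraction. Calcium that enters through voltage-gated channels or leaves the stores activates myosin light chain kinase, and nitric oxide relaxes the cell through cyclic GMP and its kinase. Their contractile genes are driven by serum response factor, which binds CArG boxes in promoters, and by its muscle coactivator myocardin. Pericytes are the mural cells of capillaries, share much of this RNA and carry less of the contractile apparatus. In brown fat these vessels feed a tissue whose blood flow climbs steeply when it makes heat.

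Promoters of 3 contractile genes are shown because they span what the search for CArG boxes found in this group. Acta2 encodes smooth muscle alpha-actin, Myl9 a regulatory light chain of myosin, and Lmod1 leiomodin, which nucleates actin filaments. The 250 bases before the start site are printed from RefSeq on GRCm38.p6, 5′ to 3′ on the strand of the gene, with a CArG box or a box with 1 of its 6 core bases off in capitals. The Acta2 stretch lies at chr19:34255374-34255623 on the minus strand, that of Myl9 at chr2:156775214-156775463 on the plus strand and that of Lmod1 at chr1:135324563-135324812 on the plus strand. Start sites here are those of RefSeq. The GENCODE vM21 annotation used for gene positions places the 5′ end of Acta2 further upstream, at 34255590. Most of the Acta2 stretch therefore lies inside the gene as GENCODE gives it.
Acta2: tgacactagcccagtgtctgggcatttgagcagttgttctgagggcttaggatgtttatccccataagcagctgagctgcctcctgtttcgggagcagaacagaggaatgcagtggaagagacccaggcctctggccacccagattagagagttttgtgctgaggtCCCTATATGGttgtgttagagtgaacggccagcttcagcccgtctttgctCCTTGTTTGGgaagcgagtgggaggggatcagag
Myl9: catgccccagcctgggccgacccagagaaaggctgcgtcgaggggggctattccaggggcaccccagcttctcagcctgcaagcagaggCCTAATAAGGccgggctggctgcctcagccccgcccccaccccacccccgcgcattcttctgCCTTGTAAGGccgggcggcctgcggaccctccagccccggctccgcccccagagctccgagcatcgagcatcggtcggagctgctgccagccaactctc
Lmod1: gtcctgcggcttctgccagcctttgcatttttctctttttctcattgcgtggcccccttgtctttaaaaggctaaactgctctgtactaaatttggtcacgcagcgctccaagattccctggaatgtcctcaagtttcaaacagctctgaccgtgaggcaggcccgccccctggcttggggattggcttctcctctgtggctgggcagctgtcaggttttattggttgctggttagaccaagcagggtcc
Acta2 had 2 near matches, starting 84 and 34 bases before the start site. Myl9 had a full CArG box 161 bases before its start and a near match 99 bases before it, and Lmod1 had no match in this window. The box reads the same on both strands. Of the 42 RefSeq promoters found for 32 of the 36 genes in the contractile list, 6 (14.3%) held a full box and 10 (23.8%) a full box or a near match, against 482 (1.47%) and 2823 (8.59%) of all 32851 promoters in the table. Overlapping promoters of 1 gene were counted apart: those of Ldb3 held the same box, 109 and 35 bases before their starts. A match of letters is not evidence of binding. Of the 6 detection genes 3 had a promoter in the table. Myh11, Myocd and Tagln did not.

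Among the genes that chose the nuclei, Myh11, the smooth muscle myosin heavy chain (chr16:14194535-14291372, mm10), was the most widely detected. It was seen in 15 of 15 nuclei of KO at 2186 CPM (1691 to 2782) and in 41 of 50 nuclei of Flox at 1666 CPM (1416 to 1948). Lmod1 followed in 9 of 15 and 33 of 50 nuclei (596 and 647 CPM), and Myocd, the gene of myocardin (chr11:65176561-65269989), in 8 and 26 nuclei (696 and 722 CPM). Acta2 (chr19:34241090-34255590) was seen in 8 and 23 nuclei at 398 CPM (205 to 694) and 573 CPM (430 to 748). Tagln, the gene of the actin-binding protein transgelin (chr9:45929619-45936058), was seen in 9 and 17 nuclei at 530 CPM (303 to 861) and 711 CPM (551 to 903). In Flox, 31 of its 67 UMIs sat in 1 nucleus. Cnn1, the gene of calponin, had 3 UMIs in 1 nucleus and 5 UMIs in 4 nuclei. In adipocyte-gene nuclei, those with at least 0.3% Ppara and Cidea UMIs, Myh11 stood at 10.9 CPM in KO and 10.6 CPM in Flox and Myocd at 0.229 and 0.615 CPM. In pericyte-gene nuclei, limited to at most 1 detection gene, Myh11 stood at 102 and 90.7 CPM (35 of 208 and 48 of 346 nuclei) and Lmod1 at 50.8 and 46.0 CPM.

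The nuclei differed in how many detection genes they showed. In KO 4 nuclei had 2 of them, 4 had 3, 5 had 4 and 2 had 5. In Flox 25 nuclei had 2, 13 had 3, 7 had 4, 3 had 5 and 2 had all 6. Myh11 and Lmod1 were found together in 9 nuclei of KO and 28 nuclei of Flox. Acta2 and Tagln were found together in 7 of 15 and 12 of 50 nuclei. Just outside the rule stood 117 barcodes in KO and 229 in Flox with exactly 1 detection gene. The 4 and 25 members with exactly 2 had 921 and 2734 CPM of Notch3, and the barcodes just outside had 595 and 627 CPM. Another 1 and 6 barcodes met the rest of the rule with 2 genes of other cell types, and 4 and 17 met it but for the adipocyte limit.

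**Figure D1:**
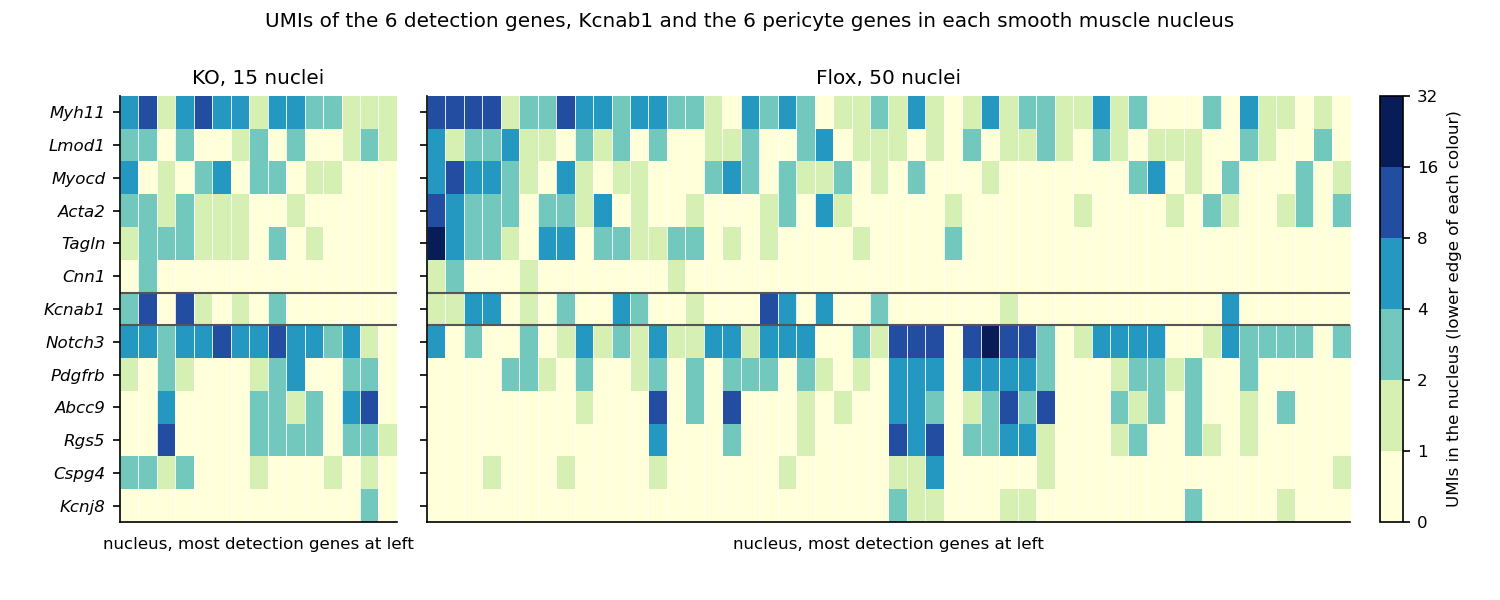
UMIs of the 6 detection genes, Kcnab1 and 6 pericyte genes (rows) in each of the 15 smooth muscle nuclei of KO and the 50 of Flox (columns, those with most detection genes at left); darker means more UMIs. In Flox, Rgs5 is empty in the 12 nuclei with at least 4 detection genes, while Notch3 was seen in 14 of the 15 nuclei of KO and 39 of the 50 of Flox.

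Kcnab1, a potassium channel beta subunit given as a marker of this cell type but not used by the rule (chr3:65109384-65378223), was seen in 6 of 15 nuclei of KO at 894 CPM (589 to 1301) and in 15 of 50 nuclei of Flox at 562 CPM (421 to 736). In fibroblast-gene nuclei it stood at 31.1 and 47.5 CPM and in pericyte-gene nuclei at 27.5 and 14.9 CPM. In endothelial-gene nuclei it stood at 9.57 and 8.47 CPM and in adipocyte-gene nuclei at 8.52 and 11.0 CPM. Its level was thus high in smooth muscle nuclei of both libraries, though most of these nuclei had no UMI of it, and 11 of the 27 UMIs in KO sat in 1 nucleus. The members just inside the rule, with 2 detection genes, had 0 UMIs of Kcnab1 in KO and 5 in Flox.

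Markers of other cell types ranged from 0 UMIs to levels near those of pericyte-gene nuclei. F13a1, Mrc1, Adgre1 and Csf1r (macrophages), Pdgfra and Smoc2 (fibroblasts), Vwf, Plvap and Shank3 (endothelium), Trdn, Ryr1 and Myh4 (skeletal muscle), Sox10 (Schwann cells) and Themis and Cd3e (T cells) had 0 UMIs in both libraries. F13a1, Mrc1, Trdn and Ryr1 were among the genes the rule allowed at most 1 of. Other members of these lists were detected: 14 of 16 fibroblast genes in KO and 11 of 16 in Flox (9 of 15 and 43 of 50 nuclei, 1723 and 1602 CPM, against 3681 and 4094 CPM in pericyte-gene nuclei), and T and NK genes with 0 UMIs in KO and 16 UMIs in 2 nuclei of Flox, 1 of which had 11830 CPM of them. Of 13 macrophage genes 3 and 7 were detected, in 8 of 15 and 22 of 50 nuclei. They summed to 464 and 467 CPM, against 485 and 433 CPM in pericyte-gene nuclei. Of 17 skeletal muscle genes 5 and 10 were detected, in 4 and 22 nuclei. Of 10 Schwann genes 4 were detected in each library, in 4 and 8 nuclei. The summed endothelial list had 928 CPM in KO and 435 CPM in Flox, with 12 and 9 of 16 genes detected, against 18136 and 18270 CPM in endothelial-gene nuclei. Its members Flt1 and Cyyr1 were limited by the rule and define the endothelial-gene nuclei, and without them the sums in smooth muscle nuclei were 795 and 393 CPM. It ranged over single nuclei from 0 to 3341 CPM in KO and from 0 to 9792 CPM in Flox. The adipocyte list summed to 13450 and 14018 CPM, against 34732 and 32910 CPM in adipocyte-gene nuclei and 14400 and 16997 CPM in pericyte-gene nuclei. All 15 and all 50 nuclei had at least 1 UMI of that list, and Slc7a10 and Lep were at 0. Free RNA also bears on the rule itself. Of adipocyte-gene barcodes, 6 of 8032 (0.0747%, 0.0274 to 0.163) in KO and 18 of 7941 (0.227%, 0.134 to 0.358) in Flox showed at least 2 detection genes, at median depths of 3271 and 2978 UMIs, against 16 of 4875 (0.328%, 0.188 to 0.532) and 62 of 8105 (0.765%, 0.587 to 0.980) of the barcodes under the adipocyte limit, at 1981 and 1837 UMIs. The part of free RNA and of merged nuclei in the results was not tested.

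Markers of pericytes, on which the rule placed no limit, were present in the same nuclei. At least 2 of Pdgfrb, Rgs5, Abcc9, Kcnj8, Notch3 and Cspg4 were detected in 11 of 15 nuclei of KO and 28 of 50 nuclei of Flox. All 6 were detected in 1 nucleus of KO and 3 nuclei of Flox, each with only 2 detection genes. Whether some members are pericytes was not tested. Notch3, the mural cell Notch receptor, was seen in 14 and 39 nuclei at 2418 and 1942 CPM, and Pdgfrb, the receptor through which mural cells are recruited, in 8 and 27 nuclei at 563 and 743 CPM. Abcc9, a subunit of ATP-sensitive potassium channels, reached 961 and 860 CPM, and Rgs5, a regulator of G protein signalling, 861 and 594 CPM. Summed over the 13 pericyte markers the members had 6062 CPM in KO and 5348 CPM in Flox, against 7726 and 6652 CPM in pericyte-gene nuclei, and 323 and 328 CPM in endothelial-gene nuclei. The pericyte-gene nuclei, 208 in KO and 346 in Flox, were barcodes with at least 2 of those 6 genes, at most 1 detection gene and at most 1 of the 9 genes of other types, which still let in 675 and 831 CPM of the fibroblast gene Dcn.

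Of the 6 pericyte genes, Rgs5, Abcc9, Pdgfrb and Kcnj8 were seen less often in the nuclei with most detection genes, in both libraries. Kcnj8 was seen in few nuclei of either kind. Rgs5 was seen in 1 of 7 nuclei with at least 4 detection genes and in 7 of 8 with 2 or 3 in KO, and in 0 of 12 and 16 of 38 in Flox. Abcc9 was seen in 1 of 7 and 6 of 8 nuclei in KO, and in 1 of 12 and 19 of 38 in Flox. Kcnab1 ran the other way, with 5 of 7 and 1 of 8 nuclei in KO and 8 of 12 and 7 of 38 in Flox, and Notch3 was seen in 7 of 7 and 7 of 8, and in 8 of 12 and 31 of 38. Cspg4 ran the other way in KO only, with 4 of 7 and 3 of 8 nuclei, and 2 of 12 and 7 of 38 in Flox. Pdgfrb was seen in 3 of 7 and 5 of 8, and in 5 of 12 and 22 of 38. Kcnj8 was seen in 0 of 7 and 1 of 8, and in 0 of 12 and 7 of 38. Median depths were 1948 and 1929 UMIs in KO, and 1304 and 1605 UMIs in Flox. This grouping was chosen after the values were seen, and its cause was not tested.

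Splitting the members by the 6 pericyte genes gave a related pattern in Flox. There the 28 nuclei with at least 2 pericyte genes had 210 CPM of Tagln (108 to 366), and the 22 nuclei with at most 1 had 1486 CPM (1119 to 1934). That second value was 727 CPM without the nucleus that held 31 UMIs, and the first was 125 CPM without its highest nucleus. Acta2 stood at 262 CPM (147 to 432) and 1053 CPM (749 to 1440), and Myocd at 507 and 1053 CPM. Tagln, Acta2, Myocd, Myh11 and Lmod1 are detection genes, which chose the members, so their levels in this split are a description and no finding. Outside the genes of the rule, Ctnna3 (an alpha-catenin) stood at 1276 CPM in the nuclei with at least 2 pericyte genes and 2431 CPM in the others, and Synpo2 (synaptopodin 2, an actin binder) at 367 and 945 CPM (306 and 628 without the highest nucleus of each). Prkg1 (the kinase activated by cyclic GMP) ran the other way, with 11081 CPM (10235 to 11978) and 4592 CPM (3928 to 5337), as did Kcnq5 (a voltage-gated potassium channel), with 3688 and 1107 CPM, the second being 452 CPM without 1 nucleus. In KO the split left 11 and 4 nuclei. Myh11 stood at 1756 CPM (1266 to 2374) and 3828 CPM (2453 to 5696) there, Tagln at 544 and 479 CPM and Prkg1 at 11540 and 8135 CPM, with intervals that overlapped for Tagln and Prkg1. Synpo2 stood at 794 and 479 CPM in KO. Lmod1 stood at 669 and 319 CPM in KO and at 489 and 891 CPM in Flox. Synpo2, Lmod1 and Tagln thus ran against their direction in Flox, with overlapping intervals in KO. Kcnab1 also ran in opposite directions in the libraries, with overlapping intervals in each. It stood at 1045 CPM (676 to 1543) and 319 CPM (38.6 to 1152) in KO, and at 385 CPM (241 to 582) and 837 CPM (569 to 1189) in Flox. The contractile list without the detection genes summed to 18731 CPM (17037 to 20549) and 27915 CPM (23932 to 32371) in KO, and to 14524 CPM (13553 to 15546) and 20826 CPM (19382 to 22349) in Flox. Without the highest nucleus of each set the sums were 16242 and 24617 CPM in KO, and 13624.5 and 18116 CPM in Flox. Median depths in the nuclei with at least 2 and at most 1 pericyte gene were 2165 and 1606 UMIs in KO and 1571 and 1281 UMIs in Flox. The genes named in this split were chosen after their values were seen.

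**Figure D2:**
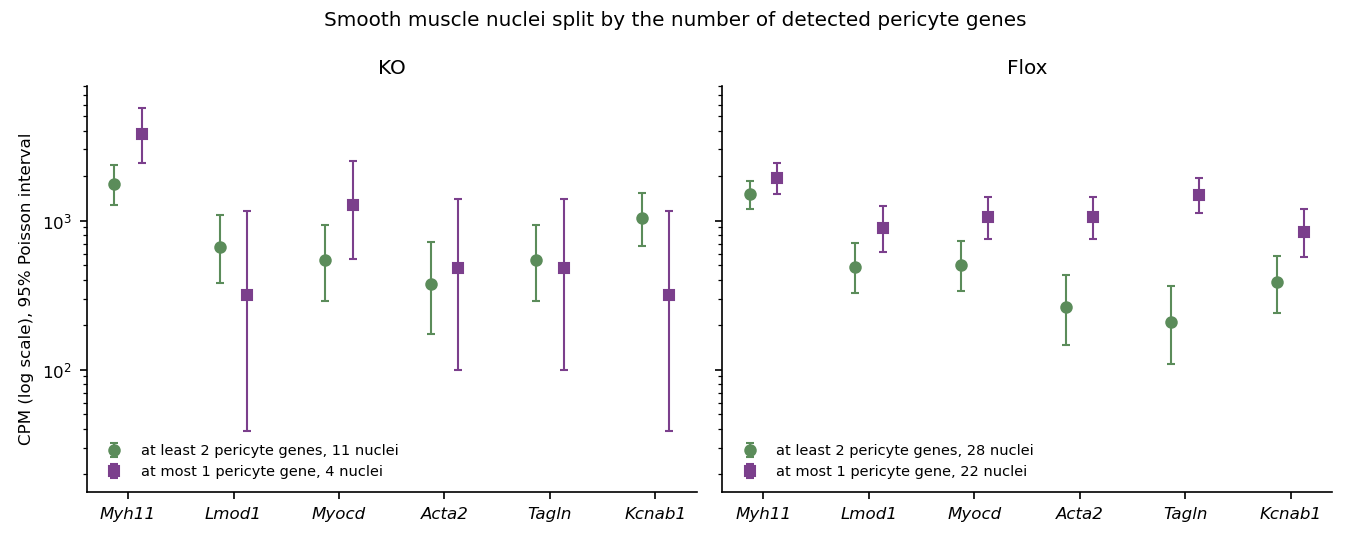
CPM on a log scale, with 95% Poisson intervals, of 5 detection genes and Kcnab1 in smooth muscle nuclei with at least 2 detected pericyte genes (circles) and at most 1 (squares), KO at left and Flox at right. In Flox the Tagln and Acta2 intervals do not overlap between the sets (210 and 1486 CPM, 262 and 1053 CPM), while in KO, with 11 and 4 nuclei, they do. The detection genes chose the nuclei, so their levels here are a description and no finding.

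Outside the rule's own genes, 20 genes were named for the highest ratio over all other barcodes in both libraries, among 102 that had at least 20 UMIs and 10 nuclei in each. Ctnna3 led them, with 2518 CPM in KO and 1730 CPM in Flox, against 11.4 and 17.8 CPM over all other barcodes. It was seen in 10 and 27 nuclei. Stac, the gene of an adaptor of voltage-gated calcium channels, followed with 1524 and 1464 CPM (19.3 and 33.9 CPM elsewhere) and Sgip1, an endocytic adaptor, with 1491 and 1210 CPM. Mylk, the gene of myosin light chain kinase, had 861 and 902 CPM, and Cald1, the gene of caldesmon, 1656 and 1273 CPM. Cacna1c, the pore subunit of the L-type calcium channel, had 4042 and 2653 CPM against 58.8 and 71.4 CPM elsewhere. The rest were Notch3, Mamdc2, Daam2, Sparcl1, Kcnq5, Inpp4b, Rgs6, Ror1, Rcan2, Prkg1, Kalrn, Tpm1, Mast4 and Igfbp7. Most were also high in pericyte-gene nuclei. Stac stood at 1099 and 1208 CPM there, Kcnq5 at 5918 and 3511 CPM and Cacna1c at 2352 and 1665 CPM. Of the 20, only Ctnna3, Mylk, Sparcl1, Rcan2 and Tpm1 were at least 2-fold above pericyte-gene nuclei in both libraries. Ctnna3 stood there at 125 and 32.5 CPM, Rcan2 (a calcineurin regulator) at 61.4 and 71.8 CPM and Tpm1 (a tropomyosin) at 116 and 161 CPM, all well under their levels in smooth muscle nuclei. The nuclei were chosen from these cells' RNA, so the ratios carry no test.

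Set against pericyte-gene nuclei, 13 of 22 counted contractile genes and 6 of 19 calcium and potassium genes were at least 2-fold higher in the smooth muscle nuclei of both libraries. Of 1578 genes with at least 20 UMIs in the members and outside the detection genes, 97 (6.15%) were at least 2-fold above pericyte-gene nuclei in both libraries and 3 (0.19%) at least 2-fold below. The minimum was set on the members, so genes high in pericyte-gene nuclei and low in the members could not enter, and the balance of above and below is set by it. Of the contractile genes 0 were below. Since the pericyte-gene nuclei were chosen to lack detection genes, these counts are a description. Synpo2 had 729 CPM in KO and 594 CPM in Flox, against 12.7 and 17.6 CPM in pericyte-gene nuclei. Actn1, the gene of an alpha-actinin, had 265 CPM in each library, against 8.47 and 8.12 CPM. Flna, which encodes the actin crosslinker filamin A, had 1193 and 817 CPM against 188 and 183 CPM, and Dmd, the gene of dystrophin, 3478 and 3353 CPM against 548 and 445 CPM in pericyte-gene nuclei. Pdlim3, the gene of a PDZ and LIM domain protein of actin filaments, had 199 and 244 CPM, against 0 UMIs and 2.71 CPM, and 0 UMIs there may be as much as 6.35 CPM. Cald1 and Mylk were less far apart, Cald1 at 1656 and 1273 CPM against 866 and 858 CPM and Mylk at 861 and 902 CPM against 396 and 345 CPM. Rock1, a kinase that raises the calcium sensitivity of contraction, had 1093 and 1082 CPM against 622 and 590 CPM.

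Calcium and potassium handling was divided. Of 19 genes 6 were at least 2-fold above pericyte-gene nuclei in both libraries. Cacnb2, a subunit of voltage-gated calcium channels, had 1259 CPM in KO and 902 CPM in Flox, against 97.4 and 71.8 CPM. Kcnma1, the calcium-activated BK potassium channel, had 199 and 318 CPM against 12.7 and 6.77 CPM, and Ryr2, a calcium release channel of the stores, 133 and 212 CPM against 4.23 and 4.06 CPM. Both rested on few nuclei: Kcnma1 was seen in 2 and 5 nuclei with 19 of 30 UMIs of Flox in 1 nucleus, and Ryr2 in 3 and 5 nuclei with 14 of 20. Atp2b4, a plasma membrane calcium pump, Slc8a1, the sodium-calcium exchanger, and Kcnab1 were the others. Kcnq5 had 3412 and 2674 CPM against 5918 and 3511 CPM, and the cation channel Trpc6 99.4 and 287 CPM against 487 and 294 CPM.

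Of 23 genes for cyclic nucleotide and G protein signalling, 0 were at least 2-fold above or below pericyte-gene nuclei in both libraries, a count near the 6.15% and 0.19% of all genes. Prkg1 had 10833 CPM in KO and 8532 CPM in Flox, against 10544 and 8997 CPM. The nitric oxide receptor genes were close too, with Gucy1a1 at 563 and 700 CPM against 415 and 498 CPM and Gucy1b1 at 431 and 446 CPM against 377 and 363 CPM. Phosphodiesterases lay further off: Pde3a had 2915 and 2271 CPM against 1120 and 1261 CPM, Pde1a 1325 and 584 CPM against 326 and 375 CPM, and Pde10a 431 and 817 CPM against 1357 and 1418 CPM. Among vasoactive receptors 5 genes had at least 20 UMIs and 1 of them, Calcrl (part of the receptor for CGRP and adrenomedullin), was at least 2-fold above, with 199 and 170 CPM against 59.3 and 71.8 CPM. Ednra, an endothelin receptor, had 696 and 605 CPM against 377 and 375 CPM, and Agtr1a, an angiotensin receptor, 265 and 361 CPM against 601 and 463 CPM. P2rx1, the ATP-gated channel of arterial muscle, had 7 UMIs in 3 nuclei of KO and 7 UMIs in 6 nuclei of Flox, and 0 UMIs in either set of pericyte-gene nuclei. Trpv1, the capsaicin receptor, had 7 UMIs in KO, all in 1 nucleus, and 3 UMIs in 3 nuclei of Flox, so its level in KO rested on a single nucleus.

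Of 15 vessel wall genes 3 were at least 2-fold above, beside 6.15% of all genes. The counts of 1 of 5 receptors, 1 of 9 signalling genes and 0 of 12 regulators in this comparison rest on 0 or 1 gene each and set no list apart from that share. Itga8, an integrin subunit, had 99.4 CPM in KO and 255 CPM in Flox, against 0 UMIs and 2.71 CPM in pericyte-gene nuclei. The matricellular gene Sparcl1 had 1623 and 1114 CPM against 370 and 291 CPM, and Ntn4, the gene of netrin 4, 861 and 764 CPM against 415 and 338 CPM. The basement membrane collagens Col4a1 (596 and 509 CPM against 453 and 559 CPM) and Col4a2 (364 and 424 CPM against 436 and 504 CPM) lay within 2-fold of their levels in pericyte-gene nuclei. Elastin (Eln) had 3 and 14 UMIs. Of 9 genes for Notch, PDGF, TGF-beta and angiopoietin signalling 1 was above, Ltbp1, which stores TGF-beta in the matrix (298 and 329 CPM against 76.2 and 118 CPM). Of 12 regulators outside the rule 0 were above or below. Ebf1, an early B cell factor family member, had 4837 and 5656 CPM against 6543 and 6148 CPM, and Mef2c, a muscle transcription factor, 497 and 477 CPM against 311 and 283 CPM. Srf, the partner of myocardin, had 0 UMIs in both libraries, and Mrtfa and Mrtfb, genes of coactivators related to myocardin, had 35 and 26 UMIs over both.

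Beyond the lists, a few genes stood out after the values were seen. Dgkb, a diacylglycerol kinase, had 2551 CPM in 9 nuclei of KO and 1284 CPM in 25 nuclei of Flox, against 38.1 and 20.3 CPM in pericyte-gene nuclei and 2.62 and 4.14 CPM over all other barcodes. Sorbs2, an adaptor of actin-rich structures, had 629 and 520 CPM against 4.23 and 5.42 CPM in pericyte-gene nuclei, Myom1 (myomesin 1) 894 and 615 CPM against 12.7 and 13.5 CPM, and Nexn (nexilin, an actin binder) 398 and 244 CPM against 10.6 and 5.42 CPM. The olfactory receptor gene Olfr78 had 20 UMIs in 5 nuclei of KO and 9 UMIs in 6 nuclei of Flox (663 and 95.5 CPM), against 0.0702 and 0.433 CPM over all other barcodes, and Slc38a11, of the amino acid transporter family SLC38, had 11 UMIs in 6 nuclei and 23 UMIs in 10 nuclei, against 0.0702 and 0.694 CPM. Below pericyte-gene nuclei were Arap2 (199 and 159 CPM against 442 and 375 CPM), Igfbp3 (232 and 191 CPM against 696 and 582 CPM) and Tshz2 (596 and 722 CPM against 1592 and 1544 CPM).

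**Figure D3:**
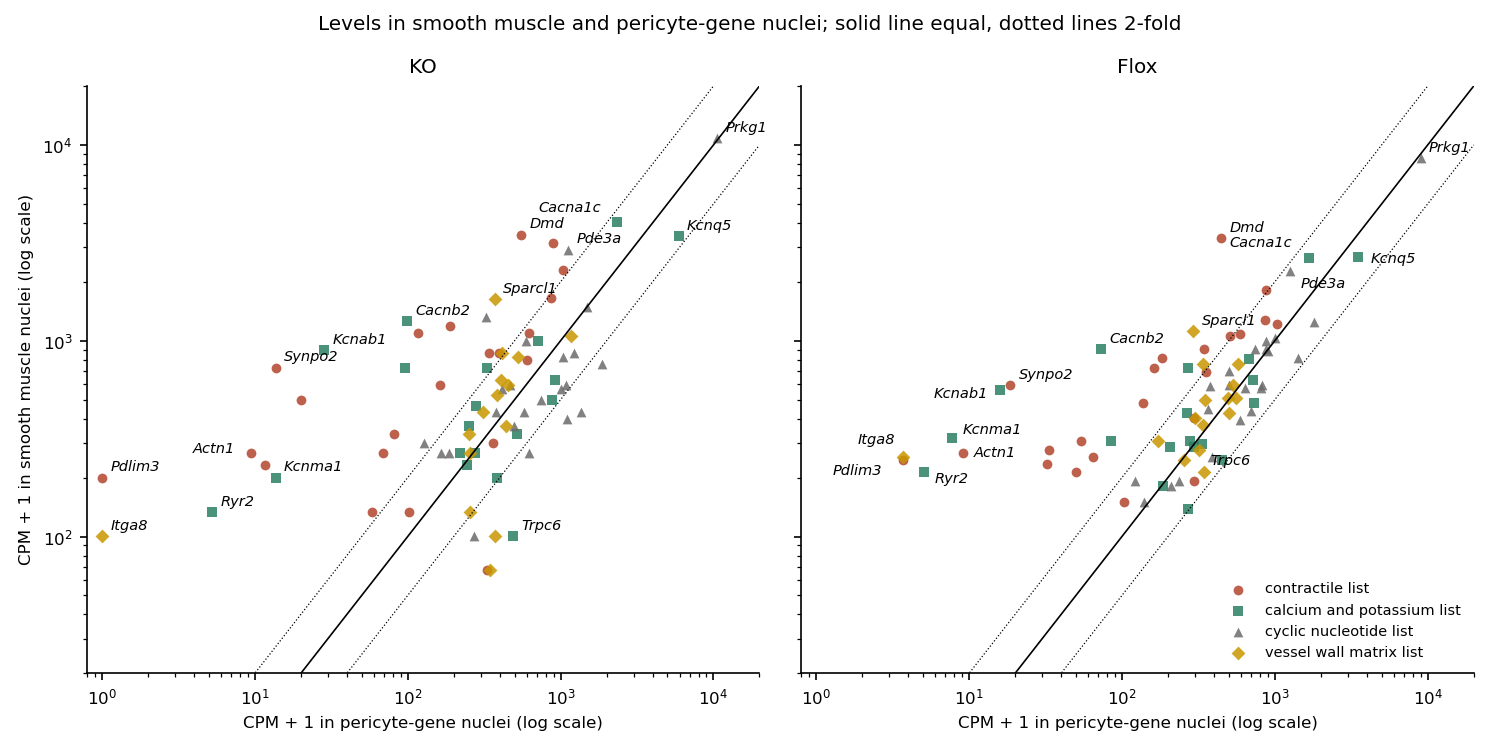
CPM + 1 on log scales in smooth muscle nuclei (vertical) and pericyte-gene nuclei (horizontal), KO at left and Flox at right; each point is a gene of 1 of 4 lists with at least 20 UMIs in smooth muscle nuclei, without the detection genes. Contractile genes such as Synpo2 and Pdlim3 and the channel genes Cacnb2 and Ryr2 lie far above the 2-fold line in both libraries, while Prkg1 lies on the line of equality and other cyclic nucleotide genes lie on both sides of it.

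Turning to genotype, smooth muscle nuclei were a smaller share of barcodes in the library labelled KO. They were 15 of 12907 kept barcodes (0.116%, 0.0651 to 0.192, Clopper-Pearson) in KO and 50 of 16046 (0.312%, 0.231 to 0.411) in Flox, a ratio of 0.373 (0.195 to 0.675). Pericyte-gene nuclei had a ratio of 0.747 (0.626 to 0.890), endothelial-gene nuclei 0.986 (0.890 to 1.09) and fibroblast-gene nuclei 1.01 (0.905 to 1.14), and adipocyte-gene nuclei were 62.2% of barcodes in KO and 49.5% in Flox. There were 7.21 smooth muscle nuclei per 100 pericyte-gene nuclei in KO and 14.5 in Flox, a ratio of 0.499 (0.260 to 0.903). Because the rule counts detected genes, depth can set the share: after thinning each barcode to 1000 UMIs, which left out 1336 and 1713 shallower barcodes, the shares were 11 of 11599 and 30 of 14351, a ratio of 0.454 (0.205 to 0.931). With at least 3 detection genes required there were 11 and 25 nuclei, and the interval of the ratio, 0.547 (0.243 to 1.15), took in 1. The libraries shared 65 barcodes, and 2 members of KO had one, without which the ratio was 0.324 (0.161 to 0.605). The low share of adipocyte-gene barcodes with 2 detection genes in KO (0.0747%, against 0.227% in Flox) moved the same way, and its part in the result was not tested. Genotype and library cannot be told apart with 1 library each.

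**Figure D4:**
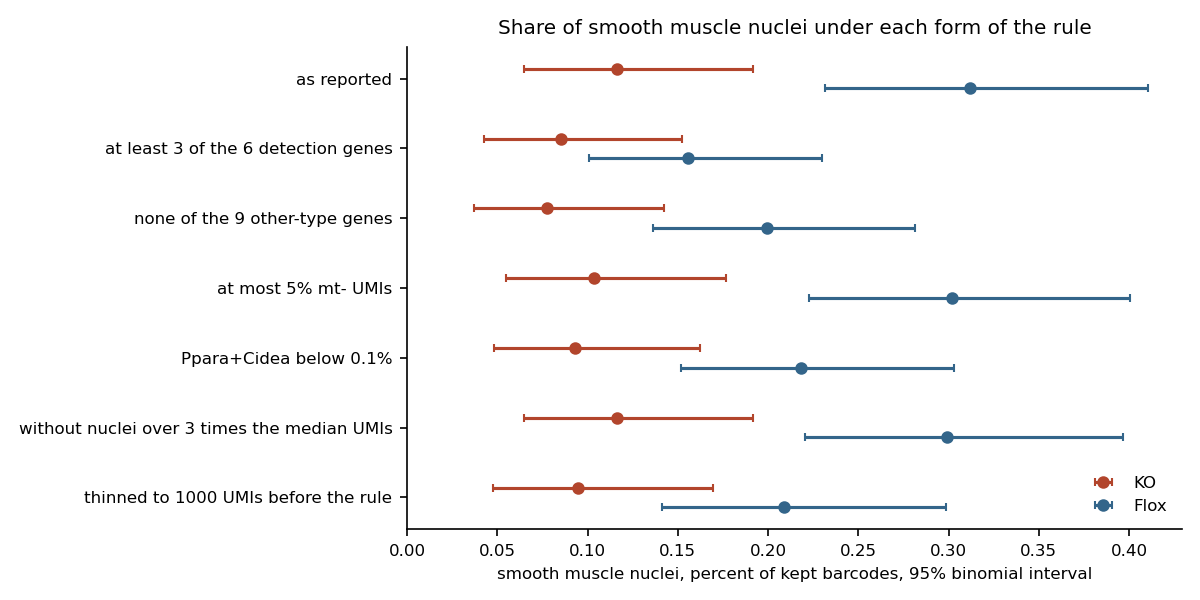
Smooth muscle nuclei as a percent of kept barcodes with 95% Clopper-Pearson intervals, KO above Flox in each pair, for the rule as given and for 6 other forms of it. The KO share lies below the Flox share in each pair, and the intervals of the pair overlap with 3 detection genes (0.0852% and 0.156%), with none of the 9 genes of other types, with the lower adipocyte limit and after thinning.

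Nfe2l1 itself (chr11:96817414-96829968) had 1 UMI in the members of KO (33.1 CPM, 0.839 to 185) and 7 UMIs in those of Flox (74.3 CPM, 29.9 to 153), too few to check the label here. In adipocyte-gene nuclei it had 9459 UMIs (310 CPM) in the library labelled KO and 3640 UMIs (132 CPM) in the library labelled Flox, which goes against the label. A 3′ read outside the deleted part checks nothing, and that part is unknown here, so each direction below is between libraries named by their labels. The proteasome list, known targets of NFE2L1, summed to 1690 CPM (51 UMIs) in KO and 2122 CPM (200 UMIs) in Flox, a ratio of 0.802 (0.573 to 1.09). With TMM factors, which scale by the bulk of genes in place of the total, it was 0.694 (0.496 to 0.941), so whether the interval takes in 1 depends on the scaling. Psme4, a proteasome activator, was the 1 gene of that list with at least 20 UMIs, at 298 and 403 CPM. The NFE2L1, CNC and small MAF list summed to 530 and 700 CPM (16 and 66 UMIs), a ratio of 0.775 (0.409 to 1.32).

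Between the libraries most genes of smooth muscle nuclei lay within 2-fold. Of 1583 genes with at least 20 UMIs over both, 101 (6.38%) were at least 2-fold higher in KO and 162 (10.2%) at least 2-fold lower, and the interval of the ratio left out 1 for 68 and 77 of them. The median log2 ratio of KO over Flox, with 0.5 UMI added, was −0.04. With TMM factors in place of plain totals, every log2 ratio shifted by −0.21 and the counts were 60 higher and 246 lower, so the split between directions depends on the scaling. All mitochondrial genes but mt-Nd5 among the 9 counted were at least 2-fold higher in KO: mt-Co1 had 5334 and 2335 CPM, and mitochondrial UMIs were 1.82% of the members' UMIs in KO and 0.794% in Flox. Over all other barcodes the shares were 1.31% and 0.566%. The part of this difference in the results below was not tested.

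The counts below are read beside the 6.38% of all genes higher and 10.2% lower, and those of most lists lie near these shares. Of its 26 counted genes 1 was at least 2-fold higher in KO (Mcam, 331 and 149 CPM, 10 and 14 UMIs) and 1 at least 2-fold lower (Sgcd, 2 and 18 UMIs, ratio interval 0.0390 to 1.45), against 6.38% and 10.2% of all genes, and its median log2 ratio was 0.06, which was −0.15 with TMM factors. Its genes summed to 24448 CPM in KO and 20650 CPM in Flox, a ratio of 1.18 (1.09 to 1.29) that was 1.03 (0.940 to 1.12) with TMM factors. These values include detection genes, which chose the nuclei. Without them the 22 counted genes had a median log2 ratio of 0.12 (−0.08 with TMM factors), and the list a summed ratio of 1.21 (1.10 to 1.33), or 1.05 (0.957 to 1.15) with TMM factors. Single nuclei ran from 3653 CPM to a median of 27809 and a highest of 49473 CPM in KO and from 3381 CPM to a median of 19893 and a highest of 70870 CPM in Flox, so the nuclei of the libraries overlapped. Ppp1r12a, the targeting subunit of myosin phosphatase, had 3147 CPM in KO and 1815 CPM in Flox, and Lpp, the gene of a focal adhesion protein, 2286 and 1210 CPM, with ratio intervals of 1.34 to 2.24 and 1.38 to 2.57. Myh11 had a log2 ratio of 0.40, Acta2 of −0.48 and Tagln of −0.39, with ratio intervals that took in 1.

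Calcium and potassium genes had 1 of 19 at least 2-fold higher in KO and 1 lower, near the shares over all genes. Atp2b4 had 729 CPM in KO and 308 CPM in Flox, a log2 ratio of 1.25 (ratio interval 1.30 to 4.27), and Trpc6 had 3 and 27 UMIs (ratio interval 0.0673 to 1.13). The list summed to 16100 and 12787 CPM, a ratio of 1.26 (1.13 to 1.40) that was 1.09 (0.979 to 1.21) with TMM factors, and its median log2 ratio was 0.20, or −0.01 with TMM factors. Cacna1c had 122 and 250 UMIs (4042 and 2653 CPM, ratio interval 1.22 to 1.90). In the cyclic nucleotide list, with 1 of 23 higher and 1 lower, Pde1a, a phosphodiesterase switched on by calcium and calmodulin, had 1325 CPM in 10 nuclei of KO and 584 CPM in 24 nuclei of Flox, a log2 ratio of 1.19 (ratio interval 1.47 to 3.47). Pde3b, the phosphodiesterase of adipocytes that insulin activates, had 398 and 881 CPM, a log2 ratio of −1.10, and stood at 3224 and 2279 CPM over all other barcodes. The cyclic nucleotide list summed to 26237 and 23727 CPM, a ratio of 1.11 (1.02 to 1.20) whose direction turned with TMM factors (0.958, 0.882 to 1.04), with a median log2 ratio of 0.03.

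Receptors had 0 of 5 beyond 2-fold either way, a median log2 ratio of 0.22 and a summed ratio of 1.20 (0.907 to 1.56). Regulators summed to 12092 and 13615 CPM, a ratio of 0.889 (0.788 to 0.998), or 0.770 (0.683 to 0.864) with TMM factors, with a median log2 ratio of −0.22. They had 0 of 13 genes higher and 1 lower, Nr2f2, a nuclear receptor of venous identity, at 133 and 350 CPM (4 and 33 UMIs, ratio interval 0.0974 to 1.06). Of the 9 Notch, PDGF and TGF-beta genes, Pdgfd (8 and 12 UMIs) was higher, and Angpt1, the angiopoietin that mural cells send to endothelium, at 298 and 690 CPM, and Vegfa, the vascular growth factor, at 133 and 414 CPM, were lower, with ratio intervals of 0.189 to 0.872 and 0.0831 to 0.887. Of 15 matrix genes 0 were higher and 3 lower, beside 6.38% and 10.2% of all genes: Lamc1, the shared laminin gamma chain (4 and 38 UMIs), Itga8 (3 and 24 UMIs, ratio interval 0.0752 to 1.29) and Mgp, a calcification inhibitor (2 and 23 UMIs, ratio interval 0.0310 to 1.10). The summed ratios were 1.02 (0.864 to 1.20) for the Notch and PDGF list and 1.08 (0.941 to 1.24) for the matrix list, and both were below 1 with TMM factors, at 0.885 and 0.936. Of 7 pericyte markers Cspg4, a proteoglycan, was higher (398 and 138 CPM, ratio interval 1.20 to 6.85) and Steap4 lower (3 and 26 UMIs). Their summed ratio was 1.14 (0.952 to 1.35), or 0.983 with TMM factors.

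Higher in KO, 3 genes met the rule for named genes, which asked for at least 30 UMIs, an interval that left out 1, at least 8 nuclei, no nucleus with over 20% of the UMIs, and a level not below that of other barcodes. The nuclei were counted in the library with the higher level, so 8 of 15 were needed in KO and 8 of 50 in Flox, and the numbers met in each direction cannot be compared. Beside Pde1a these were Ube2h, a ubiquitin-conjugating enzyme, with 729 CPM in 11 nuclei of KO and 276 CPM in 15 nuclei of Flox (log2 ratio 1.41), and Crim1, a membrane protein that binds BMPs, with 1623 CPM in 13 nuclei and 732 CPM in 33 nuclei (log2 ratio 1.15). In the other direction 20 genes met it, and the 12 furthest apart had log2 ratios from −2.26 to −1.26. Mtdh, the gene of metadherin, led them with 66.3 CPM (2 UMIs) in KO and 393 CPM (37 UMIs) in Flox, with a ratio interval of 0.0197 to 0.654. Gbf1, an exchange factor of Golgi ARF GTPases, had 99.4 and 456 CPM (ratio interval 0.0432 to 0.680), and Nrp1, the neuropilin coreceptor for VEGF and semaphorins, 331 CPM in 3 nuclei and 913 CPM in 23 nuclei. The others were Ranbp9, Tlk2, Lamc1, Rsu1, Psd3, Dnajc1, Lin7a, Map1b and Med13l, each with 3 to 10 UMIs in KO. Map1b, a microtubule-associated protein, and Lin7a, a scaffold of cell junctions, were the pair of these that stood far above other barcodes of Flox (435 against 30.5 CPM and 849 against 30.7 CPM). With TMM factors Pde1a and Crim1 were under 2-fold (log2 ratios 0.98 and 0.94), and after thinning Ube2h was at 0.51. The direction of Nrp1 turned with at least 3 detection genes required (log2 ratio 0.21).

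**Figure D5:**
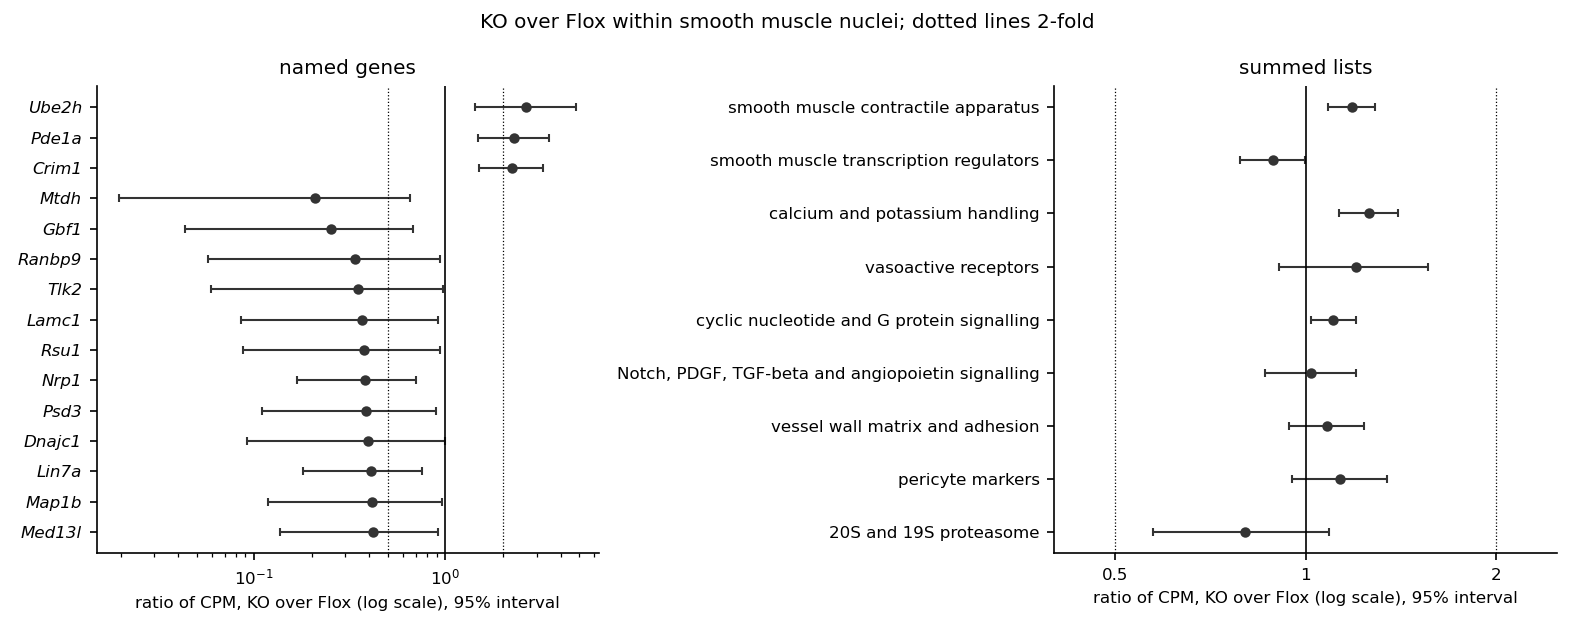
Ratios of CPM, KO over Flox, on a log scale with 95% intervals for counting error, for the 15 named genes (left) and for summed gene lists (right); dotted lines mark 2-fold. The 3 genes higher in KO lie between ratios of 2.22 and 2.65 and the 12 lower between 0.208 and 0.418, while every summed list shown lies within 2-fold, from 0.802 for the proteasome to 1.26 for calcium and potassium handling on plain totals. With TMM factors the cyclic nucleotide, Notch and PDGF, matrix and pericyte ratios turn below 1.

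Genes of stress and of other cells were also counted within the members. Immediate early and stress genes summed to 928 CPM (28 UMIs in 5 nuclei) in KO and 456 CPM (43 UMIs in 20 nuclei) in Flox, a ratio of 2.05 (1.22 to 3.35), with Klf2 at 9 UMIs in 1 nucleus of KO. The endothelial list had a ratio of 2.14 (1.27 to 3.53), and 9 of 15 and 15 of 50 nuclei had a UMI of it. The part of either in the results above was not tested. Adipocyte markers had 0 of 19 at least 2-fold higher and 2 lower, near the shares over all genes, Ppara (6 and 47 UMIs, a gene of the rule) and Pdk4 (1 and 20 UMIs, ratio interval 0.00377 to 0.976), with a summed ratio of 0.960 (0.856 to 1.07), or 0.831 (0.741 to 0.929) with TMM factors. Nuclear-encoded respiratory chain genes had 0 of 12 higher and 1 lower, Atp5c1 (2 and 21 UMIs, ratio interval 0.0338 to 1.22), with a summed ratio of 0.922 (0.749 to 1.12), or 0.799 (0.648 to 0.973) with TMM factors. The fibroblast list summed to 1723 and 1602 CPM, the macrophage list to 464 and 467 CPM, the skeletal muscle list to 166 and 318 CPM, the Schwann list to 199 and 95.5 CPM and the erythroid list to 298 and 255 CPM, each with a ratio interval that took in 1.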

How the data were processed

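Brown adipose tissue was profiled as single nuclei with 10x Genomics 3′ v3 chemistry, per the labels' protocols. The authors deposited whole-number counts of UMIs for each gene in each barcode. The file headers name Cell Ranger 5.0.0, and the submitters' processing notes name mm10. How intron reads were handled and nuclei called was not stated. The members and gene lists were chosen with earlier results of these data known. Barcodes were taken by the stated rule, with no clustering and no doublet caller. The genes of other types and an alternative without nuclei over 3 times the median UMIs stand in for one. UMIs were summed per group of nuclei and divided by their total (CPM). Ratios used 0.5 UMI added, exact binomial 95% intervals and a minimum of 20 UMIs, and shares used Clopper-Pearson intervals. A gene was called at 2-fold.

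Genes were named by rule: the genes of the member rule, the 20 most enriched, the 12 furthest apart each way between libraries, per list up to 4 with most UMIs and 2 furthest apart each way, and list members a sentence on a role needs. Left out of both rankings were genes of mitochondrial DNA, ribosomal proteins, haemoglobin and the sex chromosomes, and clones without a name. Genes are given by symbol and, where shown, by GENCODE vM21 position, which 22565 of 22620 IDs had. Of the 20 lists, 3 older symbols (Mkl1, Mkl2 and Mrvi1) were not in the files and the newer ones were. The counting was tested on simulated data. Software was edgeR 4.0.16 (TMM factors only), SciPy 1.17.1, NumPy 2.4.6, pandas 2.3.3, matplotlib 3.10.9 and Python 3.11.15.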

Additional observations from a re-analysis of the deposited data

How the results depend on the processing

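No paired analysis was possible because each genotype had 1 library, and for the same reason no replicate could be left out. The ratio of shares stayed below 1 in the 7 alternatives tried, between 0.324 and 0.547. The median log2 ratio of the contractile list, 0.06 as reported, was 0.57 with none of the 9 genes of other types, 0.27 at a limit of 5% mitochondrial UMIs, 0.30 with Ppara and Cidea below 0.1% and −0.15 with TMM factors. The count of genes at least 2-fold higher in KO, 101 as reported, was 31 after thinning to 1000 UMIs, 350 with a minimum of 10 UMIs, 26 with a minimum of 50 UMIs and 60 with TMM factors. The count at least 2-fold lower, 162 as reported, was 99 with Ppara and Cidea below 0.1%, 31 after thinning, 510 and 24 with those minimums, 246 with TMM factors and 329 without the nucleus of each library with most UMIs of the gene. Thinning and the minimums tested fewer or more genes (314, 3300 and 411, against 1583). With Ppara and Cidea below 0.1% fewer genes were tested too (921), and TMM shifts every ratio. For the other changes the cause was not tested. Of 150 values of the 15 named genes under the alternatives 143 stayed within their interval, 6 moved outside it and 1, Nrp1, turned direction, at 0.21 with at least 3 detection genes. These intervals are wide, and 12 of the 150 values were under 2-fold: Dnajc1 (−0.03), Lin7a, Map1b and Nrp1 with at least 3 detection genes, Map1b and Rsu1 with none of the 9 genes of other types, Map1b (−0.43), Nrp1 and Ube2h (0.51) after thinning, Crim1 (0.94) and Pde1a (0.98) with TMM factors, and Crim1 by the mean over nuclei. The count of genes above pericyte-gene nuclei, 97 of 1578 tested, was 55 of 309 after thinning and 97 of 705 with at least 3 detection genes. It was 71 of 796 with none of the 9 genes of other types and 80 of 916 with Ppara and Cidea below 0.1%. At a limit of 5% mitochondrial UMIs it was 93 of 1476, and 107 of 1379 without nuclei over 3 times the median UMIs. The number of genes tested differed, so these counts cannot be compared without it. The contractile median was 0.12 without the detection genes. That alternative, those for the pericyte-gene comparison and the one without shared barcodes were chosen after seeing the data. With 15 and 50 nuclei, genes at 0 may lie as high as 99.4 CPM in KO and 31.8 CPM in Flox (3 counts, one-sided).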
